A study of Mus musculus with 2 samples.

Results

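The 9 transcription factors *Sall1*, *Spi1*, *Irf8*, *Mef2a*, *Mef2c*, *Maf*, *Runx1*, *Cebpa* and *Irf5*, which set up and maintain the identity of microglia, were examined by name in a table of 13549 genes. All 9 were in the table, each as 1 row. The table came from bulk RNA sequencing of microglia, the resident macrophages of nervous tissue, sorted from the retinas of mice at postnatal day 5. The animals had the genotype CD11c-Cre-gfp;Rosa-TDTom, in which Cre and GFP are driven by the promoter of CD11c and Cre switches on TdTomato for good. Both groups thus carried both alleles. The Cd11c-active group (GFP+TdTom+, 4041 cells) used the promoter when sorted, and the Cd11c-lineage group (GFP-TdTom+, 5441 cells) had TdTomato without GFP. Both came from 8 retinas, with 4 female and 4 male, and each group gave 1 library. There is therefore no replicate check, and the values below compare 2 libraries and not 2 conditions. In such bulk samples, fewer cells of a type and less RNA per cell cannot be told apart.

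PU.1, the ETS factor encoded by *Spi1*, opens and marks most enhancers of macrophages, and it acts together with *Runx1*, *Cebpa* and *Irf8* during the formation of myeloid cells. Microglia add to this shared set *Sall1*, a zinc finger factor that sets them apart from other tissue macrophages, and factors of the MEF2 and MAF families whose motifs are frequent in microglial enhancers. *Irf5* acts downstream of innate immune receptors and, in microglia, downstream of *Irf8*.

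Some of these factors are known to act on their own genes, so their promoters were searched for their own motifs where both were available. RefSeq promoters (build GRCm38.p6, 250 bases before to 50 after a start) matched 7 of the 9 genes, with 13 starts in all. *Spi1* and *Maf* had no matched promoter, so the PU.1 and MAF motifs were not searched for in their own genes. No motif was set for *Sall1*. The first start listed is shown for the 2 factors whose own motif was found, *Mef2a* and *Runx1*, and for *Cebpa* and *Mef2c*, which lay at opposite ends of the range of ratios described below. Letters in capitals mark the match on either strand.

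Mef2a, chr7:67372809-67373108, - strand: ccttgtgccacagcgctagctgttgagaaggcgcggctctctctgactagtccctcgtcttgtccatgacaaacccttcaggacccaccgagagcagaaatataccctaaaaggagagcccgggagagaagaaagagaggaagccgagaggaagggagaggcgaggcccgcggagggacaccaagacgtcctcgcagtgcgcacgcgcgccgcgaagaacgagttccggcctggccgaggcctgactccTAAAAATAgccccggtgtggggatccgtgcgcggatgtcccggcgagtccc

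Runx1, chr16:92826025-92826324, - strand: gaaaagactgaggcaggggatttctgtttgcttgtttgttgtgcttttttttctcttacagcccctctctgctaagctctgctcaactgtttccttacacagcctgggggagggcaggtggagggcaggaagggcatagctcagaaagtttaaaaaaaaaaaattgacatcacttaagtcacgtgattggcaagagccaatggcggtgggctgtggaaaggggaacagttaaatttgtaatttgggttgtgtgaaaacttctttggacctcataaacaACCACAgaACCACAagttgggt

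Cebpa, chr7:35119043-35119342, + strand: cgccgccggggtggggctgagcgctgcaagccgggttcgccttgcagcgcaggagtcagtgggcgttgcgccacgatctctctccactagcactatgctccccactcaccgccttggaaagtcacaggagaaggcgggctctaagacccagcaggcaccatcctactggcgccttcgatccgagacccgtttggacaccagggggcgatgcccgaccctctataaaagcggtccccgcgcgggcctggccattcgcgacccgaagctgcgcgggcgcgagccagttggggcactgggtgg

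Mef2c, chr13:83503784-83504083, + strand: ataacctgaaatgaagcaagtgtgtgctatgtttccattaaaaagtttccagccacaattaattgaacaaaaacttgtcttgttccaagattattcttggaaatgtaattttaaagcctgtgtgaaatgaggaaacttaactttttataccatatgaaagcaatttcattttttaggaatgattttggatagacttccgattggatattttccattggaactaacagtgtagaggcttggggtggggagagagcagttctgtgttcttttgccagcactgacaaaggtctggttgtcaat

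The letters TAAAAATA, from the core of the MEF2 motif, were found once in the *Mef2a* promoter, across the annotated start. They occur in 2.72% of 32851 RefSeq promoters of this length. The RUNX letters TGTGGT were found 2 times in the *Runx1* promoter, on the reverse strand just after the start, and occur in 16.8% of all promoters. The other motifs searched on both strands were GAGGAAGT for PU.1 (3.2% of all promoters), GAAANNGAA for IRF (8.56%), TTGCNNAA for C/EBP (10.8%) and TGCTGA for MAF (19.5%). Of the 13 promoters of these 7 genes, 0 held the PU.1, IRF or C/EBP letters, and 2 held the MAF letters (*Irf8* and *Mef2c*, at other starts than those shown). A match is a description of the letters in this window.

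The libraries held 12943998 reads (Cd11c-active) and 13402625 reads (Cd11c-lineage). Levels are given as CPM, reads relative to the TMM-scaled library size, and ratios as log2 of Cd11c-active over Cd11c-lineage, with exact 95% intervals that cover counting error only. The 10 microglial marker genes were all detected, with summed levels of 21150 and 20424 CPM. Markers of other cells differed between the libraries. The 8 endothelial markers summed to 646 CPM (Cd11c-active) and 73.7 CPM (Cd11c-lineage), and *Cldn5*, *Flt1*, *Tek*, *Esam* and *Plvap* had 0 reads in the latter. Of 6 border macrophage markers 4 were in the table, with 21.2 and 128 CPM summed and 3 (*Cd163*, *Lyve1* and *F13a1*) at 0 in Cd11c-active. The retinal neuron markers (10 of 14 in the table) summed to 74.3 and 170 CPM, though *Rbpms* had 325 against 126 reads. The macroglial markers (5 of 7) summed to 2434 and 2488 CPM, most of it *Glul*, and the others differed both ways (*Vim* 2069 and 1005 reads, *Slc1a3* 73 and 642, *Rlbp1* 94 and 0, *Sox9* 43 and 18). Monocyte and neutrophil markers (4 of 7 in the table) summed to 2.83 and 17.0 CPM, though *Ccr2* had 35 and 0 reads, and the only dendritic marker of 6 in the table, *Zbtb46*, had 200 and 0 reads. The part of these cells in the results below was not tested.

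No member of the set passed a 2-fold difference between the libraries. The count was 0 of 9 in either direction, where 44.9% of the 13037 genes with at least 20 reads did so (23.3% higher and 21.6% lower in Cd11c-active). That background is dominated by genes with few reads. Among the 1026 genes with as many reads as the 9 factors (4528 to 19771 over both libraries), 2.14% passed 2-fold (1.36% higher and 0.78% lower in Cd11c-active), so a count of 0 of 9 does not set these factors apart from other genes of their abundance. The median log2 ratio of the 9 was -0.12, beside 0.01 over all genes with at least 20 reads and -0.02 over the genes of like abundance. Summed over the 9, 43303 reads stood against 52555, a log2 ratio of -0.09 (-0.11 to -0.07). All 9 ratios lay within the middle 95% of the 500 genes nearest to each in reads, which is the measure of spread used below. That spread holds both the error of single libraries and real differences among other genes.

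**Figure D1:**
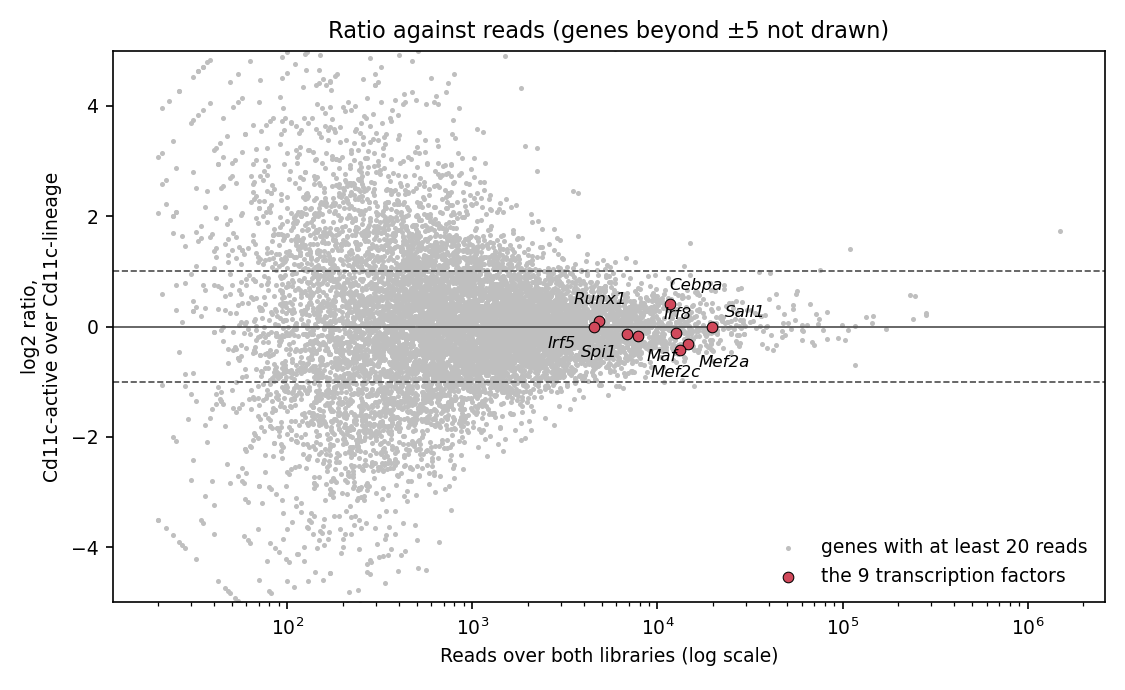
Log2 ratio of Cd11c-active over Cd11c-lineage (vertical axis) against reads over both libraries (horizontal log axis), with 1 grey point per gene with at least 20 reads and the 9 transcription factors in red. Dashed lines mark 2-fold. The 9 factors lie where the cloud is narrow, between -0.42 and 0.41.

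The factors shared by many myeloid cells come first. *Spi1* (ENSMUSG00000002111) had 3037 (Cd11c-active) and 3810 (Cd11c-lineage) reads, or 246 and 271 CPM; values are in this order throughout. Its log2 ratio was -0.14 (-0.21 to -0.07), at percentile 40.4 of the 500 nearest genes, whose middle 95% ran from -0.81 to 0.81. *Spi1* was thus slightly lower in the Cd11c-active library, by less than the spread of genes with as many reads. Ratios in this pair of libraries ran with the length and base composition of the transcript, as described below. Taking that trend out gave *Spi1* a ratio of -0.53.

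*Runx1* (ENSMUSG00000022952), needed for definitive blood formation, had 2345 and 2474 reads, or 190 and 176 CPM. Its ratio was 0.11 (0.03 to 0.19; percentile 61.2), and it was -0.03 when scaled to library totals, so its direction was not settled by these data. *Cebpa* (ENSMUSG00000034957), a basic leucine zipper factor of early myeloid commitment, had 6262 and 5379 reads. It was the factor with the most excess in Cd11c-active, at 507 against 383 CPM and a ratio of 0.41 (0.35 to 0.46), or 1.32-fold. That ratio stood at percentile 85.8 of genes of like abundance, whose middle 95% ran from -0.69 to 0.78. *Cebpa* has the highest GC content of the 9 transcripts (62.6%), and its ratio was -0.05 once the trend was taken out.

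The interferon regulatory factors were close to equal. *Irf8* (ENSMUSG00000041515), required for microglia to form in normal number and shape, had 5593 and 6929 reads, or 453 and 493 CPM. Its ratio was -0.12 (-0.17 to -0.07; percentile 36.6). *Irf5* (ENSMUSG00000029771) had 2112 and 2416 reads, or 171 and 172 CPM, with a ratio of -0.01 (-0.09 to 0.08; percentile 51.6). The interval of *Irf5* includes 0, and its value was -0.14 under library totals and -0.27 after trend removal.

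*Sall1* (ENSMUSG00000031665) had the most reads of the 9, 9201 and 10570. Its levels were 745 and 752 CPM, and its ratio of -0.01 (-0.05 to 0.03) stood at percentile 48.2 of genes of like abundance. Counting error alone bounds the difference in *Sall1* between these libraries tightly, and the middle 95% of its nearest genes, -0.62 to 0.74, is the wider limit. Library totals gave -0.15 for *Sall1*, and removing the trend gave 0.001.

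The MEF2 factors had the lowest ratios. *Mef2a* (ENSMUSG00000030557) had 6082 and 8622 reads, or 493 and 614 CPM, and a ratio of -0.32 (-0.36 to -0.27; percentile 17.0). *Mef2c* (ENSMUSG00000005583), which restrains the inflammatory response of microglia, had 5219 and 7947 reads, or 423 and 566 CPM. Its ratio was -0.42 (-0.47 to -0.37; percentile 10.0), so that it was 1.34-fold higher in Cd11c-lineage. Both ratios were beyond counting error and within the spread of their nearest genes (-0.63 to 0.74 for *Mef2a* and -0.67 to 0.74 for *Mef2c*). Taking out the trend brought them to -0.13 and -0.20, and library totals to -0.45 and -0.56. *Mef2c* is also used by endothelial cells and by retinal neurons, whose summed markers differed in opposite directions as given above. Their part in its level was not tested.

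*Maf* (ENSMUSG00000055435), the c-MAF factor of tissue macrophages, had 3452 and 4408 reads, or 280 and 314 CPM. Its ratio was -0.17 (-0.23 to -0.10; percentile 36.4), and -0.03 after trend removal. Like *Spi1*, *Irf8*, *Irf5* and the MEF2 genes it kept a negative sign under all scalings and the trend removal. *Cebpa* kept a positive sign under the scalings only, and *Sall1* and *Runx1* changed sign under 1 alternative each. The authors' deposited table gives log2 fold changes from -0.56 (*Mef2c*) to 0.27 (*Cebpa*), which are the values under library totals.

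**Figure D2:**
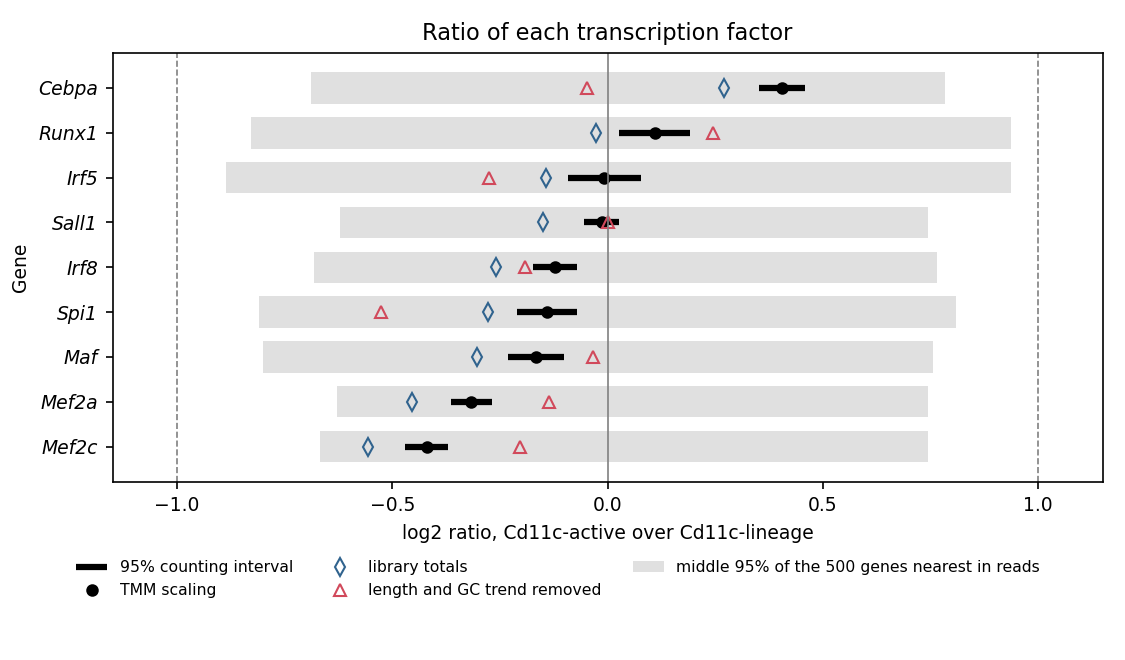
Log2 ratio of each of the 9 factors (horizontal axis) with TMM scaling (filled points), its 95% counting interval (black bars), the value with library totals (diamonds) and after removal of the length and GC trend (triangles). Grey bars are the middle 95% of the 500 genes nearest in reads, and all 9 points lie inside them; dashed lines mark 2-fold.

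Ratios between 2 factors within a library do not depend on how the libraries are scaled, so the balance of the set was compared that way over all 36 pairs. *Mef2c* and *Cebpa* stood in opposite order in the 2 libraries. The reads of *Mef2c* were 0.833 times those of *Cebpa* among the Cd11c-active cells and 1.48 times among the Cd11c-lineage cells, a difference of -0.83 on the log2 scale (-0.90 to -0.75), or 1.77-fold. With the trend taken out it was -0.16, or 1.11-fold. *Mef2a* set against *Cebpa* gave a difference of -0.72 (-0.79 to -0.65), and of -0.09 with the trend taken out. Both pairs set a GC-poor transcript (40.8% and 42.0%) against a GC-rich one. *Spi1* and *Irf8*, which act as partners on DNA, had read ratios of 0.543 and 0.550 and a difference of -0.02 (-0.10 to 0.07), which was -0.33 with the trend taken out. Which pairs lay far apart thus depended on that trend. *Mef2a* and *Mef2c* differed by 0.10 (0.03 to 0.17). Counting intervals excluded 0 in 31 of the 36 pairs, 0 pairs reached 2-fold, and the widest pair spanned 1.56 times the combined robust SD of the nearest genes.

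The trend with base composition bears on these ratios. Over the 9 factors the log2 ratio had a Pearson correlation of 0.74 with transcript GC content (Spearman 0.63) and of -0.42 with log2 length (Spearman -0.45). Over the 1024 genes of like abundance with a known length the same correlations were 0.33 (0.34) and -0.32 (-0.40). They were weaker over the 4612 genes with at least 1000 reads on which the trend was fitted, at 0.19 (0.22) and -0.19 (-0.26). These are descriptions across genes of the same 2 libraries. After the trend was taken out, the 9 ratios ran from -0.53 (*Spi1*) to 0.24 (*Runx1*), and the order of the factors was different.

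Levels were compared between factors per kilobase of the longest annotated transcript, since long transcripts give more reads. *Cebpa* was highest in both libraries, at 193 and 146 CPM per kilobase. *Sall1* followed with 142 and 143, *Irf8* with 131 and 142, *Spi1* with 121 and 133, and *Mef2a* with 88.9 and 111. These 5 factors formed the upper part of the order in either library. *Mef2c* had 67.3 and 90.1, *Irf5* 76.3 and 76.7, *Maf* 44.0 and 49.3, and *Runx1* 32.4 and 30.0. The order was the same in both libraries except that *Mef2c* and *Irf5* swapped places 6 and 7. In Cd11c-lineage the first 7 factors each differed from the next, down to *Irf5*, by less than the robust SD of the log2 ratio of genes of like abundance (0.36 to 0.43). The steps down to *Maf* and to *Runx1* were larger (1.56-fold and 1.64-fold). In Cd11c-active the steps from *Cebpa* to *Sall1*, *Spi1* to *Mef2a*, *Mef2c* to *Maf* and *Maf* to *Runx1* exceeded that SD. It describes the spread of ratios between the libraries. Here it is only a yardstick, and not the error of a step within a library. All 9 ranked high among genes with at least 20 reads, from percentile 86.2 (*Runx1*) to 98.3 (*Cebpa*) in the first library and from 85.8 to 97.9 in the second. Another isoform in use would move a level per kilobase.

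**Figure D3:**
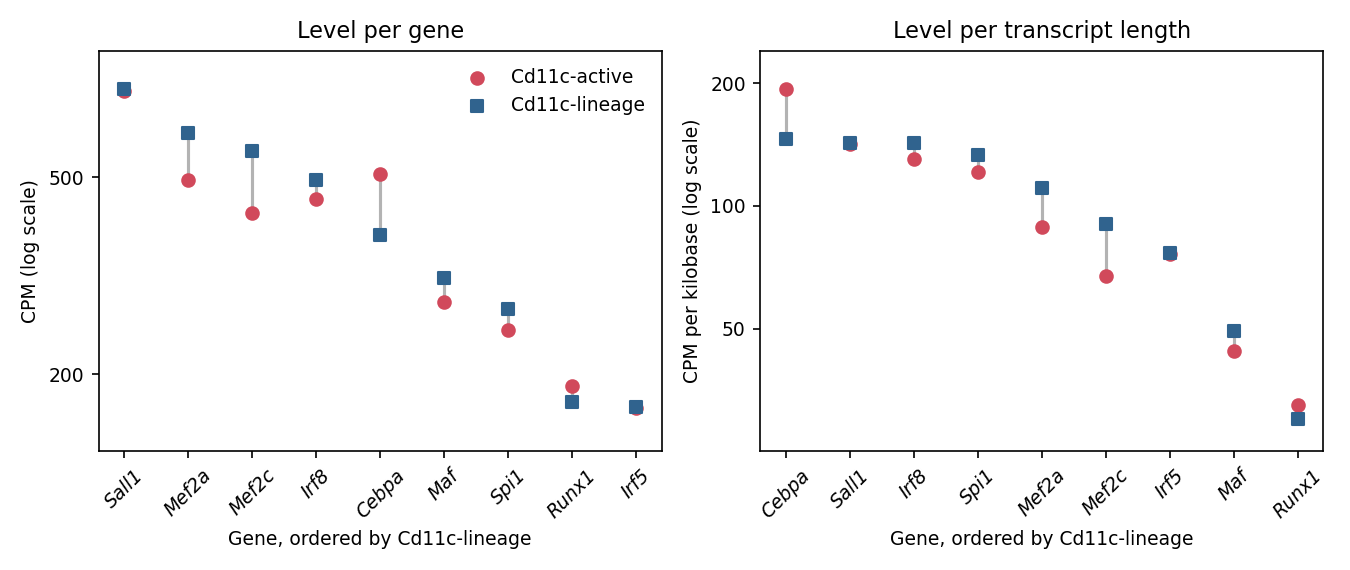
Levels of the 9 factors in the Cd11c-active (red circles) and Cd11c-lineage (blue squares) libraries, as CPM per gene (left, log axis) and as CPM per kilobase of the longest transcript (right, log axis). Each symbol is 1 library, lines join the 2 values of a gene, and *Sall1* is at 745 and 752 CPM.

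Reads of overlapping genes can be shared, and the use of strand in counting is not given in the sources used here. *Irf5* overlaps *Tnpo3* on the other strand, which had 1263 and 1122 reads. *Mef2a* overlaps *Lysmd4* (49 and 84 reads) on the other strand and the models *Gm44667* (46 and 312) and *Gm44668* (219 and 128) on its own. The antisense genes *Gm45091* at *Cebpa* and *Gm26626* at *Runx1* had 42 and 28 reads among Cd11c-active cells and 0 among the Cd11c-lineage cells. Apart from *Tnpo3* these counts are small beside those of the factors.

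The close relatives of the 9 factors were next described from a list of 27 genes, of which 21 were analysed. Past 2-fold, 4 were higher and 2 lower in Cd11c-active, against 23.3% and 21.6% of all genes with at least 20 reads. Their median log2 ratio was -0.26. The C/EBP family held 3 of the 4 higher ones. *Cebpb*, a C/EBP factor induced in activated myeloid cells, had 892 reads against 349 (72.2 and 24.8 CPM) and a ratio of 1.54 (1.36 to 1.72). It stood at percentile 96.8 of its nearest genes, inside their middle 95% (-1.42 to 1.76), and was 0.77 after trend removal, under 2-fold. *Cebpd*, induced by cytokines, had 445 against 26 reads and a ratio of 4.26 (3.71 to 4.91), at percentile 97.0 and 4.21 after trend removal. Its nearest genes spread from -2.64 to 5.12. *Cebpe*, a factor of granulocytes, had 63 reads and 0. *Cebpg*, also of this family, went the other way with a ratio of -0.62. *Cebpz* (-0.30) was on the list for its symbol and encodes no factor of this family. *Cebpd* is also expressed by cells of vessels, whose markers were higher in the same library, and their part was not tested. *Cebpa* made up 75.2% and 77.7% of the reads of the 5 C/EBP genes analysed, without correction for length.

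In the SALL, MEF2, IRF and RUNX families the factor of the set, or the set's pair, carried the greater part of the reads. In the MAF family *Maf* did not, and not all genes of that family are reported here. *Sall1* made up 86.8% and 85.9% of the reads of its family, beside *Sall3* (921 and 1112 reads) and *Sall2* (474 and 620). *Mef2a* and *Mef2c* together made up 85.6% and 86.2%. *Mef2d*, the third broadly expressed MEF2 gene, had 1906 and 2589 reads and a ratio of -0.26 (-0.34 to -0.17), on the same side as the other two, while *Mef2b* had 0 and 74 reads. Of the IRF genes *Irf1* had 1481 and 2015 reads (ratio -0.26), *Irf2* 776 and 744 (0.25), *Irf9* 554 and 799 (-0.34), *Irf3* 418 and 490 (-0.04) and *Irf7* 69 and 142 (-0.85). *Irf4*, a factor of lymphocytes and some dendritic cells, had 0 and 182 reads. It was 53.3-fold lower in Cd11c-active with the 0 set to a floor of 3 reads, and its counting interval ended at a log2 ratio of -5.42. Of its 500 nearest genes 23.0% had 0 reads in either library, so a 0 at this depth is common. Relatives outside the naming rule are given here as context and were named after their values were seen.

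Of the small MAF genes *Maff* had 560 and 1115 reads (ratio -0.81) and *Mafk* 513 and 747 (-0.36), while *Mafg* had 1499 and 1348 (0.34). The photoreceptor factor *Nrl* had 311 and 415 reads (-0.23). In the RUNX family *Runx3* had 21 reads and 0, so *Runx1* supplied 99.1% and 100% of the reads. Of the 500 genes nearest to *Runx3* in reads, 88.8% had 0 in either library.

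**Figure D4:**
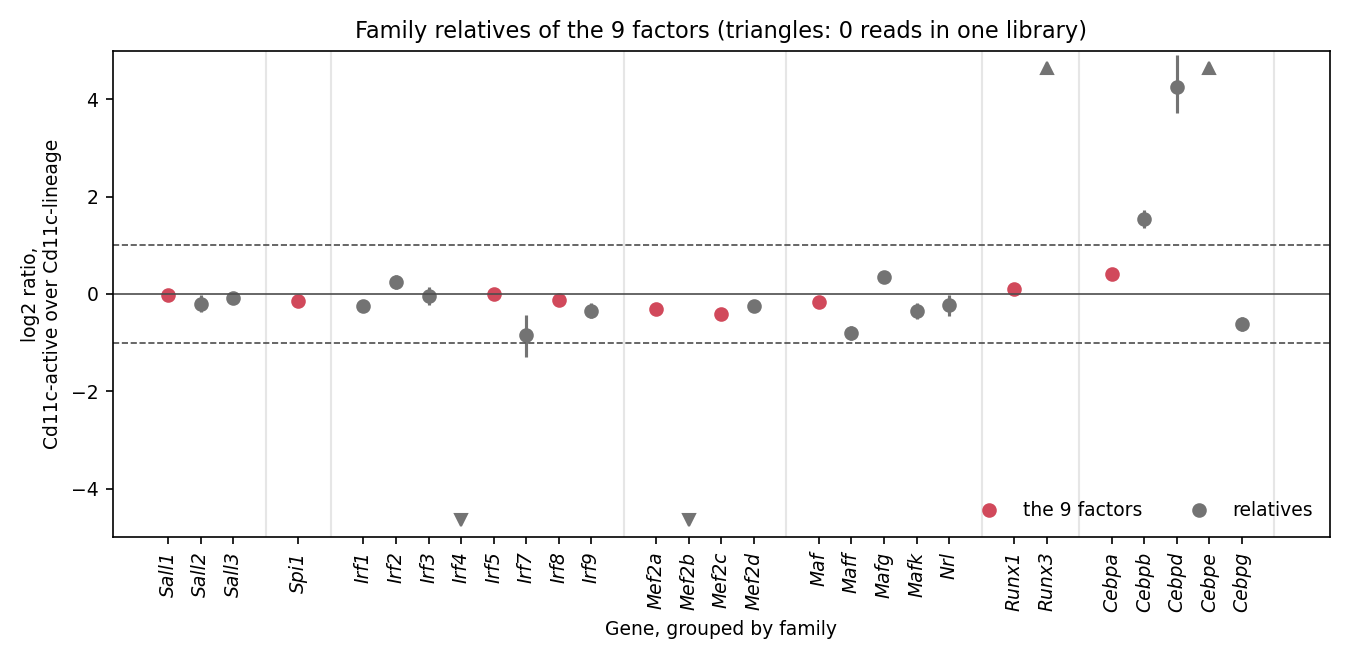
Log2 ratio of Cd11c-active over Cd11c-lineage for the 9 factors (red) and their relatives (grey), grouped by family (not all relatives are drawn), with 95% counting intervals as vertical bars. Triangles at the edge mark genes with 0 reads in one library and are not drawn to scale; *Cebpb* and *Cebpd* lie above the dashed 2-fold line.

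Genes that act with the 9 factors, or that they are known to drive, were described from further lists. Of 21 cofactors and AP-1 partners, 3 were higher past 2-fold and 0 lower, against 23.3% and 21.6% of all genes with at least 20 reads, with a median of 0.07. The 3 with the most reads, the AP-1 genes *Fos*, *Junb* and *Jun*, had ratios of 0.33, 0.68 and -0.12. *Jund*, also an AP-1 subunit, had 5020 against 2535 reads and a ratio of 1.17 (1.10 to 1.24), which was 0.43 after trend removal. *Hdac7*, a class IIa histone deacetylase that binds MEF2 proteins and is used by endothelial cells, had 578 against 63 reads and a ratio of 3.37 (3.01 to 3.78). *Batf3*, the last of the 3, had 39 and 14 reads. The obligate partner of RUNX proteins, *Cbfb*, had 1083 and 1335 reads and a ratio of -0.12, and *Smad2*, *Smad3* and *Smad4*, which carry the TGF-beta signal that maintains *Sall1*, had ratios of -0.07, 0.26 and 0.63. These last 4 were named after their values were seen. So was *Tle3*, which had 1263 and 2733 reads and a ratio of -0.93 (percentile 2.2). That lay below the middle 95% of its nearest genes, and was -0.86 with the trend taken out. Of the 21 cofactors and partners 11 lay above 0 and 10 below. Of 30 microglial genes known to depend on these factors, 0 passed 2-fold in either direction, against 44.9% of all genes with at least 20 reads. Among genes as abundant as the 9 factors the share was 2.14%, but the 30 spanned a wider range, 2123 to 171527 reads. Their median was 0.06, with 16 above 0 and 14 below, and *Csf1r* and *Sparc*, among those with the most reads, had ratios of -0.04 and 0.17. Named after their values were seen, *C1qc* (0.97; percentile 98.8) and *Cd68* (0.88; percentile 98.4) lay above the middle 95% of their nearest genes, and had 0.50 and 0.54 with the trend taken out. At the other end *Ptprc* had -0.57, *Slc2a5* -0.55 and *Siglech* -0.54.

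Other factors of macrophages were described in the same way. Of 38 listed, 34 were analysed, 2 were higher past 2-fold and 0 lower, and the median was 0.08. The shares over all genes with at least 20 reads were 23.3% and 21.6%, and 2.14% in both directions among genes as abundant as the 9 factors. The 34 ran from 107 reads (*Tfec*) to 19540 (*Klf6*), so some were far less abundant than the 9. Those with the most reads were *Klf6* (8722 and 10818 reads, ratio -0.12), *Atf3* (5859 and 6587, 0.02) and *Zeb2* (4742 and 5984, -0.15), the last a factor that holds macrophages to their tissue identity. *Nr1h2*, which encodes the oxysterol receptor LXR-beta, had 773 against 262 reads and a ratio of 1.75 (1.54 to 1.96; percentile 96.0), and 1.30 after trend removal. *Bhlhe40* had 137 reads and 0.

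Factors that define other cells had larger ratios on far fewer reads. Of 16 endothelial factors 15 were analysed and 11 had at least 20 reads, of which 10 were higher in Cd11c-active past 2-fold and 0 lower, against 23.3% and 21.6% of all genes with at least 20 reads. The summed reads were 3282 and 570, or 266 and 40.6 CPM. *Epas1*, the hypoxia-inducible factor of endothelium, had 1038 reads and 0, or 394-fold higher with the 0 set to the floor of 3 reads. The lower limit of its counting interval was a log2 ratio of 8.32. *Erg*, *Foxf2*, *Sox18* and *Sox17*, factors of vessels, had 286, 216, 214 and 202 reads and 0. A 0 in either library was found in 8.8% of the 500 genes nearest to *Erg* in reads and in 85.2% of those nearest to *Gata2*, the factor of the 11 with the fewest reads. The median over the 11 was 5.64 with genes at 0 set to the floor of 3 reads.

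Of 25 retinal factors 16 were analysed, and 15 had at least 20 reads. Past 2-fold 7 were lower in Cd11c-active (21.6% of all genes with at least 20 reads) and 3 higher (23.3% of all), with a median of -0.85 and summed levels of 143 and 276 CPM. *Crx* and *Otx2*, which specify photoreceptors, had 87 against 435 and 73 against 292 reads, ratios of -2.13 and -1.81. *Pax6* had 58 against 308 (-2.21) and *Rax* 32 against 223 (-2.60). The 3 higher ones, named after their values were seen, had few reads: *Hes1* 115 against 63, *Sox9* 43 against 18 and *Lhx2* 37 against 0.

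Of 19 factors of other blood lineages 11 were analysed and 9 had at least 20 reads, 5 of them higher and 2 lower past 2-fold, against 23.3% and 21.6% of all such genes, with a median of 3.0. Of the 5, *Zbtb46*, *Cebpe*, *Tcf7* and *Gata2* had 0 reads in Cd11c-lineage, as had many genes of such depth (a 0 in either library in 21.0% of the genes nearest to *Zbtb46* and 85.2% of those nearest to *Gata2*). *Myb*, a factor of blood progenitors, had 60 against 452 reads (-2.72; percentile 1.2), *Nfil3* 271 against 38 (3.0), and *Zbtb46*, from the dendritic marker list, 200 and 0. *Tal1*, *Gata2* and *Lef1* stand in both the blood and the endothelial list, *Cebpe* in the blood list and among the relatives, and *Nrl* in the retinal list and among the relatives. The summed reads of the factors of other blood lineages, 1574 and 1202, compare with 43303 and 52555 for the 9 microglial ones.

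**Figure D5:**
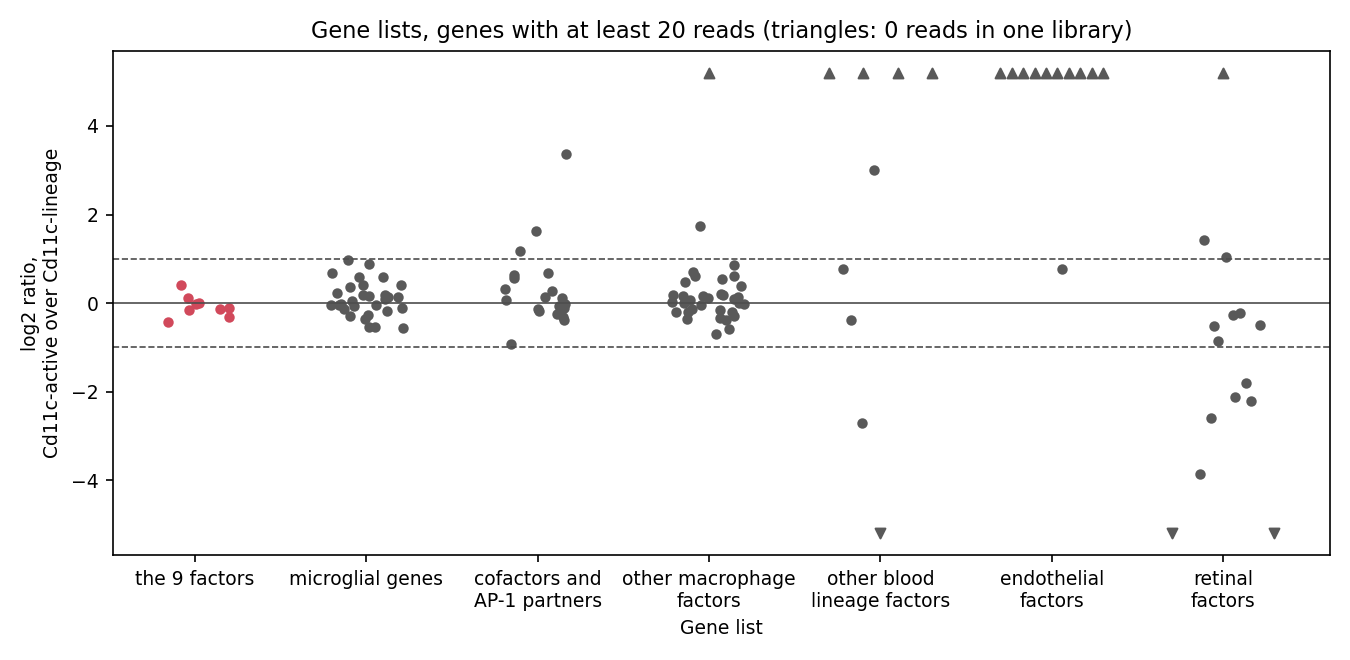
Log2 ratio of Cd11c-active over Cd11c-lineage for genes with at least 20 reads in 7 lists, 1 point per gene, with the 9 factors in red. Triangles at the edge mark genes with 0 reads in one library and are not drawn to scale; of the 11 endothelial factors shown 10 lie at the top, and the 9 microglial factors lie between the dashed 2-fold lines.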

How the data were processed

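Bulk RNA sequencing of 2 sorted populations, with 1 library each, was analysed. Per the submitters' processing notes, cutadapt 3.5, STAR 2.7.9a, featureCounts 1.6.3 and edgeR 4.0.16 were used with build GRCm39. Their settings, the annotation and the use of strand are not given in the sources used here. Stranded libraries were made from RNA depleted of ribosomal RNA, per the labels' protocols. The authors deposited raw counts per gene, whose smallest sum over both libraries was 6, and a log2 fold change and log2 average CPM. Columns left unmapped numbered 0.

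From the counts, TMM factors (edgeR 4.0.16 in R 4.3.3) were 0.954 (Cd11c-active) and 1.05 (Cd11c-lineage). The log2 ratio used a prior of 0.5 reads. Intervals are exact Clopper-Pearson 95% intervals on reads, and intervals between pairs of genes are normal approximations on log counts; both cover counting error only, because reads lacking molecular identifiers need not stem from separate molecules. The 13037 genes whose reads in the 2 libraries summed to at least 20 were compared, and past 2-fold means a log2 ratio of 1 or more in size. As there is 1 library per group, neither edgeR nor DESeq2 could be fitted as a test, and no p-value is given. Each ratio was set among the 500 genes nearest in log reads. The floor for a gene at 0 was 3 reads (0.243 and 0.214 CPM). Transcript length and GC content came from GENCODE M21 (GRCm38), matched for 13499 genes (99.6%); the trend was fitted by a quadratic model on genes with at least 1000 reads. Overlapping genes came from the same annotation. The ratios, intervals and percentiles were tested on data simulated with counting error only. Spread beyond counting error was not simulated.

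The 9 factors and all lists were chosen with earlier results of these data known. The 9 were named in full, and of the lists of factors and microglial genes those past 2-fold with at least 200 reads and at most the 3 with the most reads. Marker lists are given by their sums, and some genes are not reported here. Alternatives were library totals, DESeq2 1.42.0 size factors, TMM without ribosomal, mitochondrial, 7SK and 7SL genes, a prior of 2 reads, other count minimums, a 1.5-fold threshold, 200 or 1000 nearest genes, and removal of the trend. Python 3.11.15, numpy 2.4.6, pandas 2.3.3, scipy 1.17.1 and matplotlib 3.10.9 were used.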

Additional observations from a re-analysis of the deposited data

How the results depend on the processing

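No member of the set passed 2-fold in either direction under any alternative run, nor at a threshold of 1.5-fold. The median log2 ratio of the 9 factors was -0.26 under library totals, which shift the median of all genes by -0.14, so relative to all genes it moved little. It lay between -0.13 and -0.12 under the other alternatives, the removal of the trend with length and GC content included. Percentiles moved by at most 4.8 points with 200 or 1000 nearest genes. Of the 63 log2 ratios of single factors under an alternative, 46 stayed within the 95% counting interval of the reported value and 17 moved beyond it, 9 of them with scaling to totals and 8 with the trend taken out. No paired analysis was possible because each group has 1 library. Each factor had at least 2112 reads in either library, so counting error is small, and the spread between replicates could not be measured.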
